A study of Mus musculus with 4 samples.

Results

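The apoptosis and cytokine signalling genes of mouse pancreatic islets examined here were 10 genes. They were looked up by gene name in both peak lists. They were the BCL2 family genes Bcl2, Bcl2l1 and Mcl1, the caspase gene Casp8, the NF-kB feedback genes Nfkbia and Tnfaip3, the cytokine signalling genes Socs2, Socs3 and Stat3, and Txnip. All 10 had at least 1 peak, but they were chosen with earlier results of these data known, so this count is not a result about them. In all, 7491 genes had a peak in either list.

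The study profiled N6-methyladenosine (m6A), a methyl mark on mRNA, by MeRIP-seq, in which RNA fragments bound by an m6A antibody (the immunoprecipitate, IP) are sequenced beside unenriched input. The knockout islets (labelled Wtap-betaKO) came from mice lacking Wtap, a subunit of the m6A writer complex, in beta cells, and the control islets (labelled Wtapflox/flox) from mice whose Wtap gene is floxed; all were 7 weeks old and on normal chow. RNA was pooled from 19 knockout and 10 control mice, so each genotype had 1 IP and 1 input library, no replicate and no test between genotypes. The driver of the beta cell deletion and the floxed exons are not given in the sources used here, and a knockout islet still holds the endothelial, immune and other endocrine cells outside the reach of a beta cell deletion. Wtap itself had 1 knockout and 2 control peaks, none of which overlapped, and with the floxed exons unknown they do not check the genotype.

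Apoptosis through mitochondria is held back by BCL2, BCL-xL (from Bcl2l1) and MCL1, which bind the pore-forming members of their family, whereas caspase 8 starts apoptosis at death receptors. Cytokines signal to the nucleus by NF-kB and by STAT proteins, and both routes induce their own inhibitors, I-kappa-B-alpha and A20 (from Nfkbia and Tnfaip3) for NF-kB and the SOCS proteins for STATs. In beta cells these routes are known for their part in cytokine-induced death, and TXNIP, which binds thioredoxin and is induced by glucose, for its part in death at high glucose.

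All 10 genes had a control peak, and 5 of them also had a knockout peak. Bcl2l1, Mcl1, Socs3, Stat3 and Txnip had peaks in both lists, and Bcl2, Casp8, Nfkbia, Socs2 and Tnfaip3 had control peaks and no knockout peak under their own names. No member had a knockout peak alone, a state of 23.1% of all 5378 genes with a knockout peak; since all 10 members had a control peak, it could not occur among them. The control-alone share of the members was 50% (5 of 10, exact Clopper-Pearson 95% interval 18.7 to 81.3, counting error only), and that of all 6250 genes with a control peak was 33.8%, which lies inside the interval. With only peaks of q 0.001 or less the share of the members was 28.6% (2 of 7, Nfkbia and Tnfaip3), as Bcl2, Casp8 and Socs2 then had no control peak. The share of all genes at that threshold is not given here, and 33.8% is not its comparator. The lengths of the 9 knockout peaks of the members summed to 3291 exonic nt, and those of their 14 control peaks to 4462 nt. The control sum counts 149 nt in each of the 2 Socs2 entries. Of the knockout peaks, 8 shared at least 1 exonic base with a control peak on the same strand. The exception was in Stat3, so 11.1% had no counterpart (interval 0.281 to 48.2), against 38.4% of all knockout peaks. Of the control peaks, 7 had a counterpart and 7 had none (50%, interval 23.0 to 77.0), against 48.4% of all control peaks. The 7 without one were all the peaks of Bcl2, Casp8, Nfkbia, Socs2 and Tnfaip3, whereas every control peak of the other 5 genes had a knockout counterpart. Overlapping pairs were thus present in all 5 genes that had knockout and control peaks, against 86.8% of all such genes. The intervals over peaks take peaks as independent, but here all control peaks of a gene were alike in having or lacking a counterpart. The 2 Socs2 control entries lay at 1 place, and with overlapping peaks merged 7 of 13 control peaks had a counterpart.

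**Figure D1:**
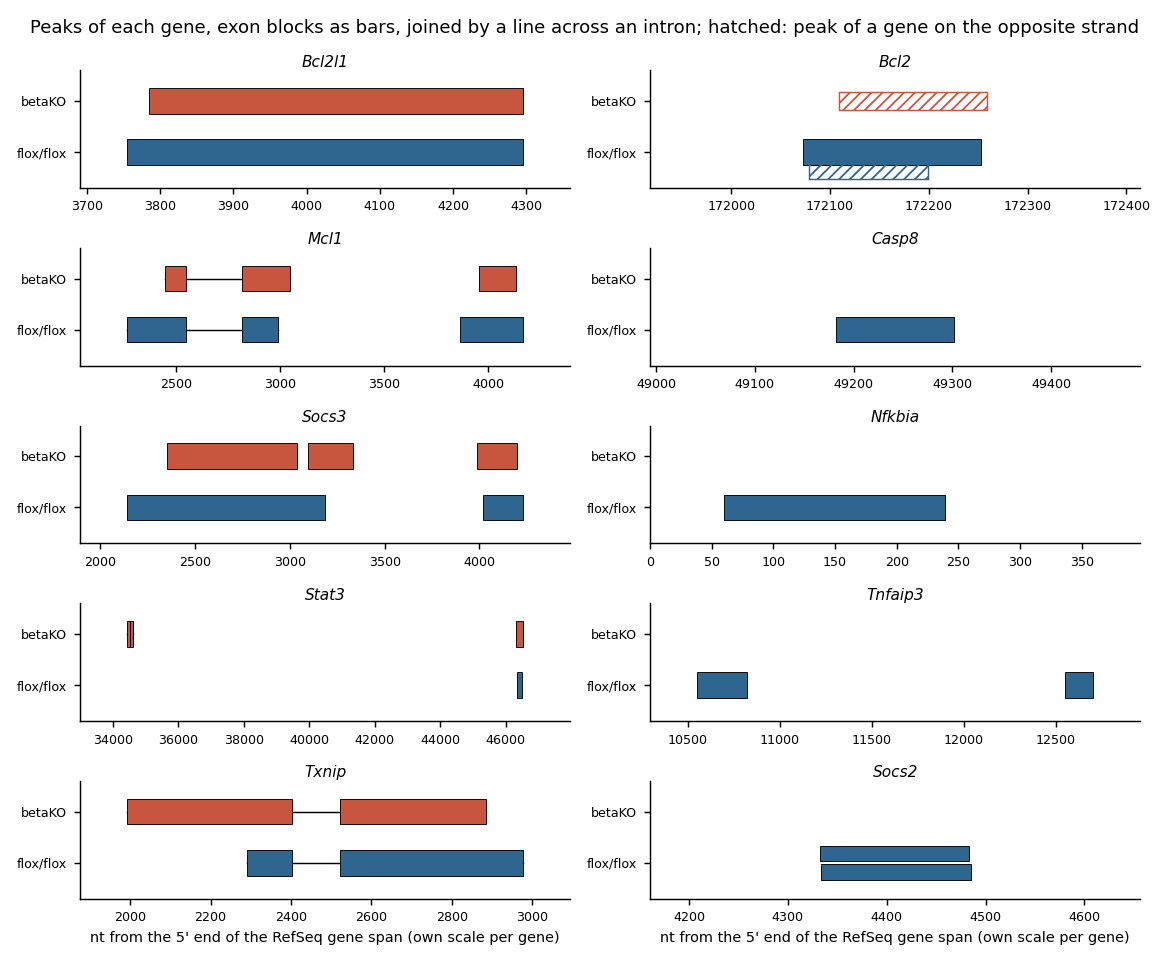
Positions of the peaks of the 10 genes, with the knockout list above the control list in each panel; the horizontal axis is the distance in nt from the 5′ end of the RefSeq gene span (introns included), on a scale of its own for each gene. The 5 genes on the left had overlapping peaks in both lists, and the 5 on the right had control peaks alone under their names; hatched bars in the Bcl2 panel are peaks of an unnamed gene on the opposite strand.

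Among the BCL2 family genes, Bcl2l1 had the best-supported peak of the 10 genes in both lists. Its knockout peak lay on chromosome 2, minus strand, at 152829509 to 152830018 (GRCm38), and its control peak at 152829509 to 152830048. The peaks ended at the same base on the 3′ side and differed by 30 nt on the 5′ side, so 510 nt were common to both. The deposited fold enrichment, the peak caller's ratio of IP over input, was 3.71 in the knockout and 6.21 in the control list. The deposited q, given here as −log10 q so that larger values are stronger calls, was 13.7 in the knockout and 27.4 in the control list. Each value stood high in its own list, at percentile 89.4 of all knockout peaks and 95.9 of all control peaks. Both peaks lay near the 5′ end of the RefSeq span, 3785 nt from it in the knockout and 3755 nt in the control, and 70777 nt from its 3′ end, introns included.

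Mcl1, whose short-lived product opposes mitochondrial apoptosis, had 2 peaks in each list, all on chromosome 3, plus strand. The first crossed an exon junction in both genotypes, with blocks at 95659387 to 95659487 and 95659761 to 95659990 in the knockout and at 95659208 to 95659487 and 95659761 to 95659930 in the control. Its fold was 3.21 in the knockout and 3.20 in the control list, and its −log10 q was 10 in the knockout and 7.5 in the control list. The intron between the blocks, 273 nt long, was the same in both lists, so both calls ended and resumed at the same exon edges. The second peak lay downstream at 95660898 to 95661078 in the knockout and at 95660808 to 95661108 in the control. For it the fold was 1.88 in the knockout and 2.57 in the control list, and the −log10 q was 3.40 and 5.78, in that order. Thus the stronger Mcl1 call was the junction peak in either genotype.

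Bcl2, the founding anti-apoptotic member, had 1 control peak at 106542038 to 106542217 of chromosome 1 on the minus strand. Its fold was 14.7 and its −log10 q 2.36, which placed it at percentile 92.9 of control peaks by fold and 10.7 by q. A peak of an unnamed gene (ENSMUSG00000054006) stood at the same place on the plus strand in both lists, at 106542032 to 106542181 in the knockout (fold 4.73, −log10 q 2.62) and at 106542092 to 106542211 in the control (fold 14.7, −log10 q 2.36). The control values of the unnamed gene equal those of Bcl2. The knockout peak of the unnamed gene covered 144 of the 180 nt of the Bcl2 peak. Reads of the Bcl2 transcript and of a transcript from the other strand cannot be told apart here, so the absence of a knockout peak for Bcl2 holds for its name and strand and not for the place. Within their own list, 389 knockout peaks (4.13%) and 507 control peaks (4.62%) overlapped a peak on the opposite strand. No other member had a peak of either list on the opposite strand at its own peaks.

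Casp8, the initiator caspase of death receptors, had 1 control peak on chromosome 1, plus strand, at 58844415 to 58844534, and no knockout peak of any name within its RefSeq span. The control fold was 15.8 and the −log10 q 2.73, at percentiles 94.2 and 19.2 of the control list. The Casp8 peak was the shortest of the 23 peaks of the 10 genes, at 120 nt. The folds of Bcl2 and Casp8 repeat values that many peaks share: folds of 8 or more that lie within 0.05 of a whole multiple of a fixed step (0.815 in the knockout and 1.05 in the control list) made up 10.1% of knockout and 13.7% of control peaks. Of such peaks 74.9% in the knockout and 78.5% in the control list had no counterpart, and their median −log10 q was 2.98 in the knockout and 3.12 in the control list. Read counts behind the peaks are unknown, so the height of these folds has no error that could be given.

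**Figure D2:**
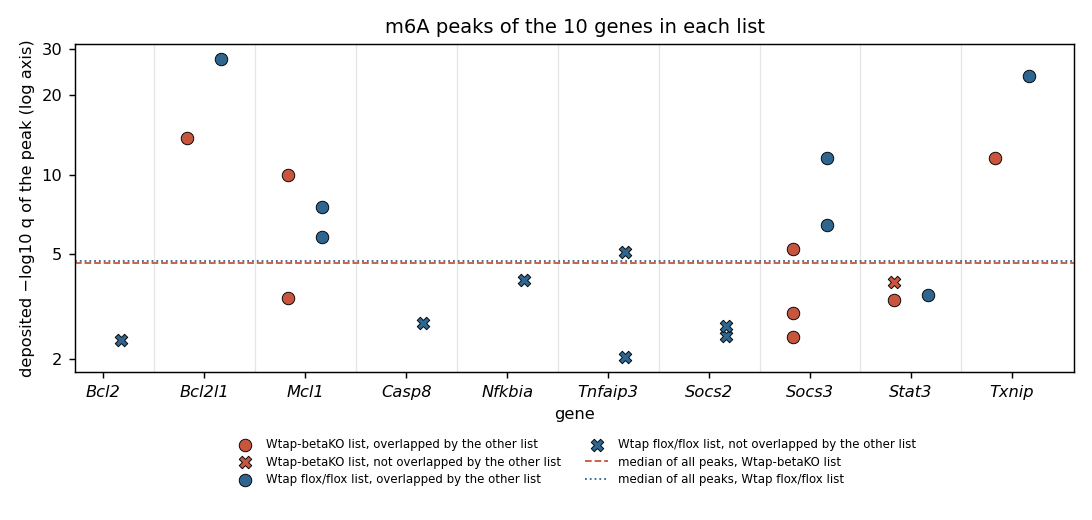
Deposited −log10 q (log axis) of each peak of the 10 genes, knockout list on the left and control list on the right of each gene; circles have and crosses lack an overlapping peak in the other list, and the lines are the medians of all peaks. Of the 7 control peaks without a counterpart 6 lie below the control median of 4.72, against 1 of the 7 with a counterpart. The 2 Socs2 entries, at 1 place, are counted apart.

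The NF-kB feedback genes had control peaks alone. Nfkbia, which encodes the inhibitor that keeps NF-kB in the cytoplasm, had 1 control peak on chromosome 12, minus strand, at 55492409 to 55492587. It began 60 nt from the 5′ end of the RefSeq span, closer to a gene start than any other peak of the 10 genes. Its fold of 1.79 was low, at percentile 3.68 of control peaks, with a −log10 q of 3.98 at percentile 41.9. Tnfaip3, which encodes the ubiquitin-editing enzyme A20, had 2 control peaks on chromosome 10, minus strand. The upstream one, at 19004588 to 19004858, had a fold of 3.47 and a −log10 q of 5.07. The one nearer the 3′ end, at 19002709 to 19002859, had a fold of 7.90 and a −log10 q of 2.03, so the order of these peaks by fold was the reverse of that by q. No knockout peak of any name lay within the RefSeq span of Nfkbia or Tnfaip3 on either strand.

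Of the STAT feedback genes, Socs3 had peaks in both lists and Socs2 in the control list alone. Socs3, an inhibitor of gp130 and leptin receptor signalling, had 3 knockout and 2 control peaks on chromosome 11, minus strand. The peak at the 3′ end of the gene lay at 117966139 to 117966347 in the knockout, 60 nt from the end of the span, and at 117966109 to 117966317 in the control, 30 nt from it. Its fold was 10.6 in the knockout and 4.29 in the control list, and its −log10 q was 5.21 in the knockout and 6.44 in the control list. The fold of 10.6 lay on a whole multiple of the knockout step. Upstream, the control list had 1 peak of 1043 nt at 117967152 to 117968194, with a fold of 5.06 and a −log10 q of 11.5. The knockout list had 2 shorter peaks across it, at 117967003 to 117967241 (fold 6.52, −log10 q 2.43) and 117967301 to 117967986 (fold 2.73, −log10 q 2.99). The first of these shared 90 nt with the control peak, and the other, of 686 nt, lay wholly inside it. The fold of 6.52 also lay on a multiple of that step, below the fold of 8 from which such peaks were counted. By q the knockout calls ranked low in their list, at percentiles 11.8 and 24.5, whereas the control call stood at percentile 81.4.

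Socs2, an inhibitor of growth hormone receptor signalling, had 2 control entries on chromosome 10, minus strand, at 95412837 to 95412987 and 95412839 to 95412989. They were shifted by 2 nt and shared 149 of 151 nt, so they describe 1 place. Their folds were 6.67 and 7.02 and their −log10 q 2.44 and 2.67. The first-named entry stood among 221 control peaks listed after the chromosome order of the deposited table starts again. No knockout peak lay within the RefSeq span of Socs2.

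Stat3, which encodes the transcription factor downstream of gp130 cytokine receptors, was the only one of the 10 genes with a knockout peak that no control peak overlapped. Its shared peak lay on chromosome 11, minus strand, at 100893080 to 100893289 in the knockout and at 100893110 to 100893259 in the control, which it contained. The fold was 2.00 in the knockout and 1.90 in the control list, and the −log10 q was 3.34 and 3.50, in that order. A further knockout peak at 100904976 to 100905147 joined 2 blocks of 83 and 68 nt across a gap of 21 nt, with a fold of 3.43 and a −log10 q of 3.91. It is the peak without a counterpart. All 3 calls lay below the median −log10 q of their lists (4.63 in the knockout and 4.72 in the control).

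Txnip, which encodes thioredoxin-interacting protein, had 1 peak of 2 exon blocks in each list, on chromosome 3, plus strand. The blocks were 96559950 to 96560359 and 96560479 to 96560842 in the knockout, and 96560248 to 96560359 and 96560479 to 96560932 in the control. The intron of 119 nt between them was the same, and 476 exonic nt were common. The fold was 1.45 in the knockout and 2.30 in the control list, and the −log10 q was 11.5 in the knockout and 23.6 in the control list. Low folds thus stood beside high −log10 q: the knockout peak stood at percentile 0.792 by fold and 85.2 by q, and the control peak at 11.9 and 94.4. Peaks over more than 1 exon block numbered 3 of 9 in the knockout (Mcl1, Stat3 and Txnip) and 2 of 14 in the control (Mcl1 and Txnip), where 18% of all knockout and 11.7% of all control peaks had this form.

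**Figure D3:**
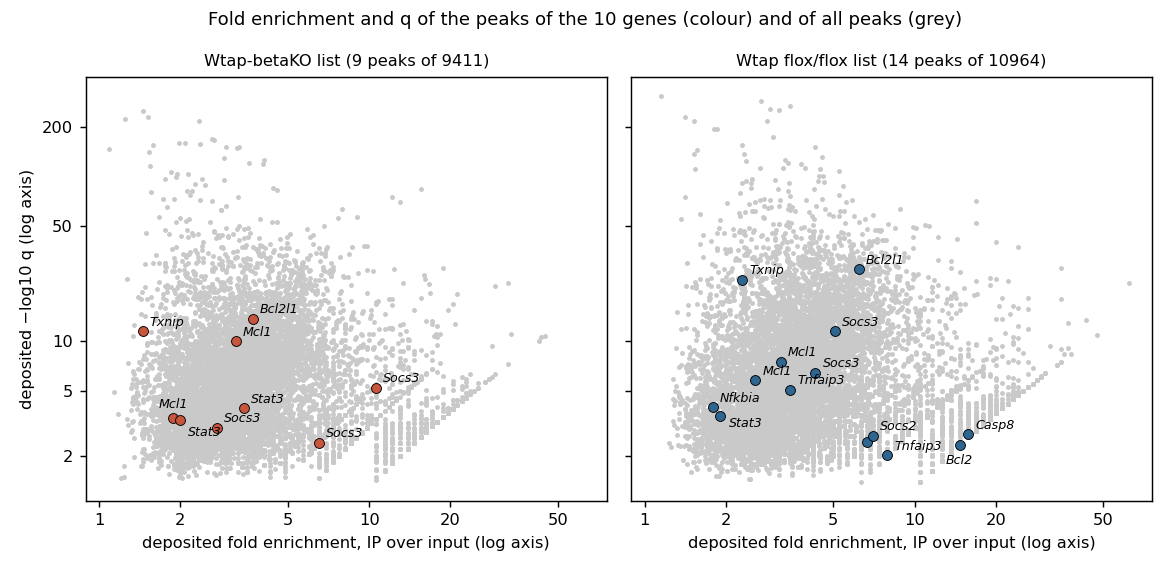
Deposited fold enrichment against −log10 q (both axes log) for all peaks with a finite value (grey) and for the peaks of the 10 genes (colour), knockout list on the left and control list on the right. In the control list Txnip lies at low fold and high −log10 q, and Bcl2 and Casp8 at high fold and low −log10 q; the nearly coincident Socs2 entries carry 1 label.

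Fold and q ordered the peaks of these genes differently. Over the 14 control peaks Spearman's rho between fold and −log10 q was −0.51, and over all 10964 control peaks −0.03. Over the 9 knockout peaks of the members it was −0.03, and over all 9411 knockout peaks 0.02. These are descriptions across peaks of 1 library pair each, which share depth and, within a gene, the transcript. The 8 overlapping pairs of the members covered a median of 83.8% of the knockout and 74.9% of the control peak, close to the medians over all 6317 overlapping pairs (85.7% and 71.8%). Shared control peaks of the members had a median length of 450 exonic nt and a median −log10 q of 7.5. Control peaks without a counterpart had a median length of 151 nt and a median −log10 q of 2.67. By fold the order was the reverse, with a median of 3.20 for the shared and 7.02 for the others. The medians of the control peaks without a counterpart, and the rho over the 14 control peaks, count the 1 place of Socs2 as 2 entries.

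Over all genes, a weak control call was more often without a knockout peak. When all genes with a control peak were divided into 5 parts by their best control −log10 q, 62.1% of genes in the weakest part (1.41 to 2.96) had no knockout peak, with an interval of 59.3 to 64.9. Bcl2, Casp8 and Socs2 lay in that part. In the next (2.97 to 4.37) the share was 51.0% (48.2 to 53.8), and it held Nfkbia, without a knockout peak, and Stat3, with one. Tnfaip3 lay in the middle part, where 35.4% (32.8 to 38.2) had none. Mcl1 and Socs3 lay in the next, with 16.8% (14.8 to 19), and Bcl2l1 and Txnip in the strongest part (13.8 and above), with 3.99% (2.98 to 5.23). The best control −log10 q was 2.36 to 5.07 in the 5 members without a knockout peak and 3.50 to 27.4 in the 5 with one, so these ranges overlapped through Stat3, Nfkbia and Tnfaip3. Of the 5 with one, Bcl2l1, Socs3 and Txnip (3 genes) had a smaller best −log10 q in the knockout list than in the control list, and Mcl1 and Stat3 a larger one. The value of q follows read depth, RNA level and enrichment together, so fewer reads on a transcript and less m6A on it cannot be told apart in these lists. A gene without a call is likewise not a gene shown to lack m6A.

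**Figure D4:**
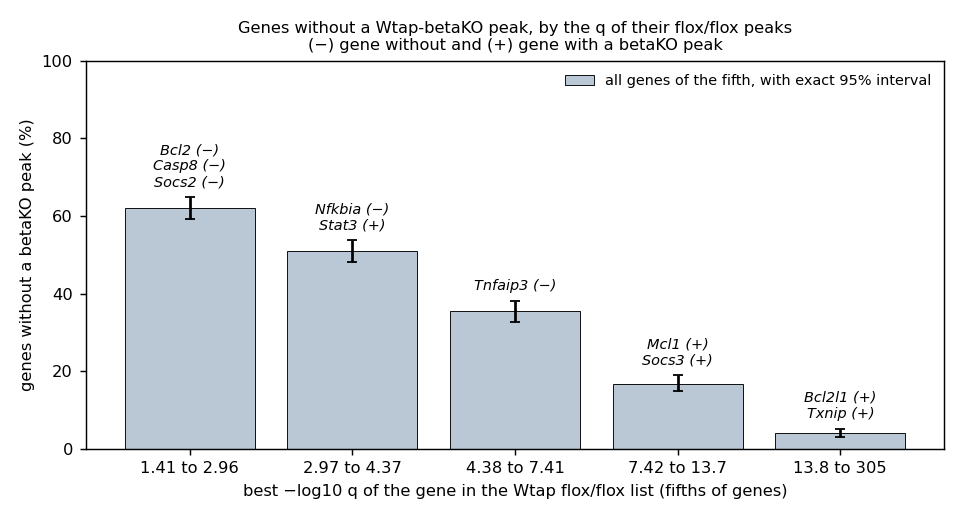
Share of genes with a control peak that had no knockout peak (bars, %, with exact 95% intervals), in 5 parts of all genes by their best control −log10 q, low to high. The names are the 10 genes, marked (−) where no knockout peak was listed under the gene's name and (+) where one was; 4 of the 5 genes marked (−) lie in the 2 weakest parts.

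Other genes of these pathways came from 6 lists of 160 genes in all, of which 75 had a peak. Peaks in both lists were found for 47, in the knockout alone for 11 and in the control alone for 17. The control-alone share was 26.6% (17 of 64, interval 16.3 to 39.1), beside 33.8% of all genes, and the knockout-alone share was 19% (11 of 58, interval 9.87 to 31.4), beside 23.1%. Their median best −log10 q was 5.88 in the knockout and 6.86 in the control list, against 5.44 and 5.54 over all genes. Both intervals contain the share of all genes. By best −log10 q, 33 of the 47 genes found in both were lower in the knockout list than in the control list, and 14 were higher. The list of cytokine receptor, JAK, STAT and SOCS genes held 15 of the lower and 3 of the higher ones. The same tally over all genes is not given here. As q also follows the read depth behind each list, no difference between genotypes is drawn from these counts.

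Of the death receptor and TNF signalling genes 16 had a peak, 8 of them in both lists, 8 in the control alone and 0 in the knockout alone. The control-alone share was 50% (interval 24.7 to 75.3, beside 33.8% of all genes) and the knockout-alone share 0 of 8 (0 to 36.9, beside 23.1%), and both intervals contain the share of all genes. Of the 8 control-alone genes, those with the best q were Tab3, an adaptor of the kinase TAK1 (−log10 q 8.29, fold 5.35), and Tnfrsf21, which encodes death receptor 6 (6.33, fold 5.50). The adaptor gene Tab2 had peaks in both, with a best −log10 q of 33.6 in the knockout and 25.9 in the control. So did Cyld, the gene of a deubiquitinase of NF-kB signalling, with 5.72 in the knockout and 20.1 in the control.

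Cytokine receptor, JAK, STAT and SOCS genes formed the largest list, with 18 in both, 4 in the knockout alone and 8 in the control alone. The knockout-alone share of 18.2% (5.19 to 40.3) and the control-alone share of 30.8% (14.3 to 51.8) stood beside 23.1% and 33.8% of all genes. The prolactin receptor gene Prlr had 6 knockout and 4 control peaks, with a best −log10 q of 27.1 in the knockout and 73.1 in the control. The interleukin-1 receptor gene Il1r1 had 4 knockout and 5 control peaks, with 52.8 and 72.2 in the same order. Interferon receptor subunits differed in class: Ifngr1 (−log10 q 7.06) and Ifnar2 (6.91) had a knockout peak alone, and Ifnar1 (4.22) had a control peak alone. Ifngr2, added after its values were seen, had an overlapping pair (3.38 in the knockout and 3.60 in the control). Pias2, of a family of STAT inhibitors, had 2 control peaks alone with a best −log10 q of 8.49.

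NF-kB subunit, inhibitor and feedback genes had 7 in both, 3 in the knockout alone and 1 in the control alone. The knockout-alone share was 30% (6.67 to 65.2, beside 23.1% of all genes) and the control-alone share 12.5% (0.316 to 52.7, beside 33.8%). By their best −log10 q, 4 of the 7 shared genes were lower and 3 were higher in the knockout list than in the control list. Nfkbiz had a best −log10 q of 7.20 in the knockout and 19.5 in the control, and Tnfaip8 had 4.14 in the knockout and 10.4 in the control. The 3 that were higher, named after their values were seen, were Tax1bp1 (19.3 in the knockout and 5.52 in the control), Nfkb1 (7.08 in the knockout and 3.24 in the control) and Otud7b (3.98 in the knockout and 2.78 in the control). Tax1bp1 and Otud7b had no overlapping pair, and neither did Map3k14, one of the lower ones (3.04 in the knockout and 3.72 in the control). The values of these genes thus belong to different places in the knockout and control lists. Tnip1, which encodes a partner of A20 (−log10 q 3.63), and the interleukin-1 receptor kinase gene Irak2 (3.46) had a knockout peak alone. Tollip, of interleukin-1 and Toll-like receptor signalling, had a control peak alone (10.9).

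Further BCL2 family genes had 3 in both and 1 in the knockout alone. The knockout-alone share was 25% (0.631 to 80.6, beside 23.1% of all genes) and the control-alone share 0 of 3 (0 to 70.8, beside 33.8%). Bcl2l2, another anti-apoptotic member, had a best −log10 q of 3.03 in the knockout and 7.54 in the control, and Becn1, an autophagy gene whose product binds BCL2, had 5.34 in the knockout and 6.92 in the control. The knockout peak alone belonged to Bcl2l11, which encodes the pro-apoptotic BIM (−log10 q 2.62, fold 15.5). Of the list of caspases, apoptosome and IAP proteins 5 genes had peaks, all in both lists. Among them were Birc6, a large IAP gene with 6 knockout and 5 control peaks (best −log10 q 15.6 and 14.4), and the stress factor gene Ddit3, often called CHOP (4.23 and 12.8). The 8 caspase genes of that list and the apoptosome genes Apaf1 and Cycs had no peak in either list. In the caspase, apoptosome and IAP list the knockout-alone and the control-alone share were each 0 of 5 (0 to 52.2), beside 23.1% and 33.8% of all genes. The list around Txnip and redox had 6 in both and 3 in the knockout alone. Its knockout-alone share was 33.3% (7.49 to 70.1, beside 23.1%) and its control-alone share 0 of 6 (0 to 45.9, beside 33.8%). The intervals of these lists contain the shares of all genes. Keap1 (21.5 in the knockout and 16.8 in the control) and its target Nfe2l2 (13.4 and 21.0) had both, and Arrdc4, an arrestin-family relative of Txnip (17.8), and the mitochondrial thioredoxin gene Txn2 (4.02) had a knockout peak alone.

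**Figure D5:**
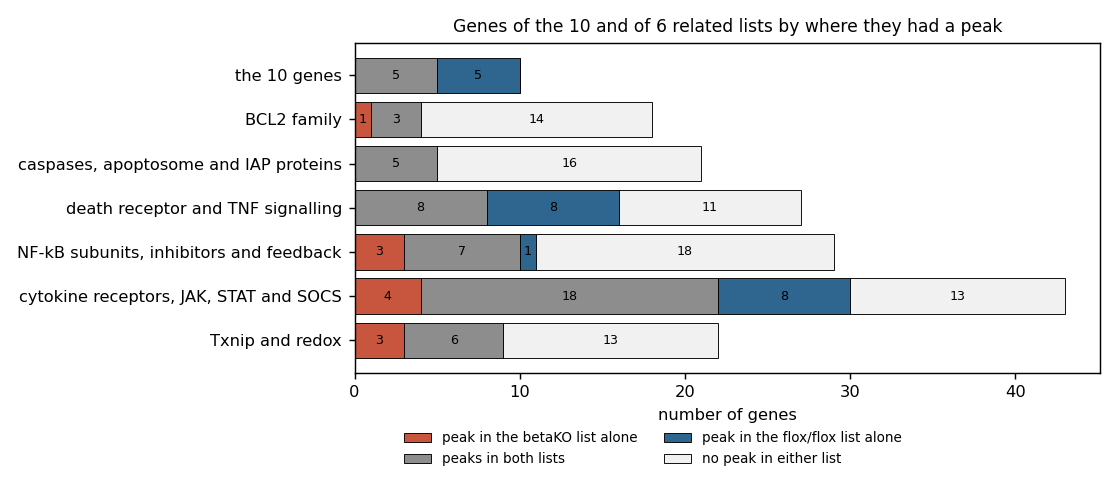
Number of genes with a peak in the knockout list alone, in both lists, in the control list alone or in neither, for the 10 genes and for 6 lists of related genes. The death receptor and TNF list and the 10 genes have equal numbers in both lists and in the control alone, 8 and 8 in the first and 5 and 5 in the second.

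The whole lists held 9411 knockout and 10964 control peaks; read depth is unknown. Islet identity was visible in both: of 10 beta cell markers 9 had a peak in the knockout and 8 in the control, Ins1, Pdx1 and Mafa among those with both. Cells that also use cytokine signalling left calls too. Endothelial markers had a peak in 6 of 7 in the knockout and 7 of 7 in the control, and immune markers in 3 of 10 in each. Of the immune markers H2-Ab1 had peaks in both lists, Cd74 and H2-Aa in the knockout alone, and C1qa and C1qb in the control alone. The other immune markers, the leukocyte gene Ptprc and the macrophage gene Adgre1 among them, had none in either list. Other marker lists had more genes with a peak in the knockout than in the control: alpha cell 6 and 4 of 7, delta and PP cell 4 and 2 of 4, acinar 2 and 1 of 6, and ductal 3 and 0 of 5 (Krt7, Sox9 and Spp1). Of 5 stromal markers 1 had a peak in each. RNA levels are not part of the peak lists, and the part of these cells in the peaks of the 10 genes was not tested.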

How the data were processed

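Per the series' design text, the authors' peak caller was exomePeak 2.16.0, run for each genotype on its IP with its own input as control and a q threshold of 0.05. The submitters' processing notes name fastp 0.19.11, BWA 0.7.12 and the build GRCm38 (mm10). Whether libraries keep the strand is not given in the sources used here. The deposited files hold, for every peak, a p-value, log10 p and log10 q (unbounded score columns, whose sign was turned here) and a fold enrichment, the caller's ratio; these are the authors' values and were used to describe and rank peaks.

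The start of a sample title in a list's name gave its genotype. Peaks were taken by gene name, with 0-based starts made 1-based. Peaks were shared when exon blocks overlapped by at least 1 nt on the same strand. Gene spans came from RefSeq GRCm38.p6, in which all 10 genes and 160 pathway genes matched by symbol; 9 of the 10 genes had promoter windows there, and none of these 12 windows held a peak. Sequence under the peaks and transcript regions were not analysed here. From each pathway list the 2 genes with the best q in each class were named (by control q for genes with peaks in both lists). The genes and lists were chosen with earlier results of these data known. The overlap code gave 0 wrong overlaps in 2000 simulated pairs. Python 3.11.15, pandas 2.3.3, NumPy 2.4.6 and SciPy 1.17.1 were used.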

Additional observations from a re-analysis of the deposited data

How the results depend on the processing

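When only calls with a q of 0.001 or less were kept, 7 of the 10 genes had a control peak and 2 of these (Nfkbia and Tnfaip3) had no knockout peak; Bcl2, Casp8 and Socs2 left the control list. With a fold of at least 2 in both lists, 3 genes had peaks in both and 3 had an overlapping pair, since the Txnip peak of the knockout and the Stat3 peak of the control fell below that fold. The control-alone count stayed at 5 with other members, as Nfkbia left the control list and Txnip became control-alone, and Stat3 became knockout-alone. With that fold, 5 of 7 knockout peaks and 4 of 12 control peaks had a counterpart. Shares over all genes or peaks at that fold or at a q of 0.001 are not given here. Of all 47 alternative values 42 stayed within 1.5 times of the reported count, among them every value under equal numbers of peaks, a 50% reciprocal overlap, a 200 bp neighbourhood, merged peaks, overlap without regard to strand and genes assigned by position. That tolerance is wide for counts this small. With equal numbers of peaks Bcl2 lost its control peak, which left 4 of 9 genes control-alone, and 7 of 11 control peaks had a counterpart. Shares over all genes or peaks in that setting are not given here either. Counting a knockout peak on either strand, an alternative chosen after seeing the data, left 4 of the 10 genes without one (40.0%, beside 33.4% of all genes), since Bcl2 then had one. No paired analysis was possible because there was 1 RNA pool for either genotype, and no replicate could be left out. Depth is unknown and limits peaks with few reads.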

Other observations

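No peak in either list was found for 85 of the 160 pathway genes, among them 14 of 18 further BCL2 family genes, such as the pore-forming members Bax and Bak1. The peak lists name only genes with a peak, so these counts have no share over all genes to stand beside. Other death genes, such as Bcl2l11, Fadd and Ripk1, had a peak. These examples were chosen after their values were seen, and the peak lists give no RNA level for them.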
